A study of Rattus norvegicus with 8 samples.

Results

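Glutathione S-transferases were examined in the rat line Htt14A2.5 through 8 genes: Gstm1, Gstm2, Gstm5 and Gstm7 of the mu class, Gsta4 of the alpha class, Gstp1 of the pi class, Gstt1 of the theta class, and the microsomal enzyme Mgst1. Every probe set that the array annotation assigns to exactly 1 of these symbols was taken, which gave 14 of the 8799 probe sets on the array and 8 of its 4736 genes with such a probe set. The samples were 4 induced ones (+PA) and 4 uninduced ones (-PA). PC12 cells derive from a rat phaeochromocytoma, a tumour of the adrenal medulla, and all 8 samples carry the same stable, inducible construct for a truncated mutant first exon of human huntingtin. Induced cells had received the steroid ponasterone for 48 h. Uninduced cells are the same line by their titles, although the free text of all 8 samples mentions induction. A line without the construct that was given ponasterone was not analysed here, so effects of the steroid and of the mutant protein cannot be told apart, and all samples come from 1 line. Whether replicates were separate cultures is not given in the sources used here, so the p-values measure the spread between these samples, which may be technical.

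Glutathione S-transferases join the tripeptide glutathione to reactive, often oxidised or electrophilic molecules, which makes these molecules more soluble and ready for export. The soluble enzymes work as dimers within a class, and the microsomal ones are membrane proteins of separate origin. Many of their genes are known to respond to oxidants and electrophiles through the transcription factor Nfe2l2 (Nrf2), which binds antioxidant response elements, and in rat the Gstp1 promoter is also known for binding AP-1 (Jun and Fos proteins). In cells that make catecholamines, such enzymes are known to dispose of reactive quinones formed when dopamine is oxidised.

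The 4 mu class members lie in 1 gene cluster on rat chromosome 2. In the RefSeq order for GRCr8 it runs Gstm5, Gstm6l, Gstm7, Gstm6, Gstm3l1, Gstm3, Gstm2, Gstm1, Gstm4, with 2 long non-coding RNA genes in between. The 250 bases before the annotated start are shown for these 4 neighbours, because they changed by unequal amounts. The same stretch is shown for Gstp1, whose promoter is known for binding AP-1. Sites further upstream lie outside these windows and were not searched. Capitals mark the antioxidant response element core TGACNNNGC and the AP-1 site TGACTCA, searched on both strands. All sequences are RefSeq, GRCr8, 5′ to 3′ on the strand of the gene.
Gstm5 (chr2:198219519-198219768, plus strand): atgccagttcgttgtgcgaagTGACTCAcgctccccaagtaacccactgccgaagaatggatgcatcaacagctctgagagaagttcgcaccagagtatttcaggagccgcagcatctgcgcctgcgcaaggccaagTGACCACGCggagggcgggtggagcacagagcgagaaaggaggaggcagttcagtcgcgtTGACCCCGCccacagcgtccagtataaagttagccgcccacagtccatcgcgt
Gstm1 (chr2:198343384-198343633, minus strand): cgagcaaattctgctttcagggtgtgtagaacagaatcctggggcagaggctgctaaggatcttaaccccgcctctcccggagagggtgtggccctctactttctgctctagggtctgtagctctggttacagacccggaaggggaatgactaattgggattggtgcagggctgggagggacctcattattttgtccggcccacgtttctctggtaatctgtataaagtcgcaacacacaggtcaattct
Gstm7 (chr2:198260320-198260569, minus strand): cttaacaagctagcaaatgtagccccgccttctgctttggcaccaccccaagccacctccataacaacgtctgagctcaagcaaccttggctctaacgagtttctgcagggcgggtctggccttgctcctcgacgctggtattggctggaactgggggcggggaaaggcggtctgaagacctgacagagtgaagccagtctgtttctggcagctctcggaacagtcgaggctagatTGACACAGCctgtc
Gstm2 (chr2:198316918-198317167, minus strand): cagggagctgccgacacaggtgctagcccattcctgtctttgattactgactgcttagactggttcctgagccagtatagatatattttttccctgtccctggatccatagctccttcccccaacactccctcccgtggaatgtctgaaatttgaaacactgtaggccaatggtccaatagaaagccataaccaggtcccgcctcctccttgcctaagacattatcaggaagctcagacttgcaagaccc
Gstp1 (chr1:210769706-210769955, minus strand): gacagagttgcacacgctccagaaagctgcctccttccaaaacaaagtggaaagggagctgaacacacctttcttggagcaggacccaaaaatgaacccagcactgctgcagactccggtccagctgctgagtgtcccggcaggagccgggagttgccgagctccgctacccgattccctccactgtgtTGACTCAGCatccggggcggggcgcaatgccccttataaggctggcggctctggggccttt

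The Gstm5 window holds 2 matches to the antioxidant response element core, 113 to 105 and 53 to 45 bases before the start, and 1 AP-1 site 229 to 223 bases before it. The Gstp1 window holds 1 core match, 61 to 53 bases before the start, and the AP-1 site lies within it. The Gstm7 window holds 1 core match next to the start (14 to 6 bases before it), and the Gstm1 and Gstm2 windows hold neither motif. Nor do the windows of Gsta4 and Mgst1, which are not printed; Gstt1 had no entry. Of 33469 rat promoter windows of this length, 10.1% hold the core and 4.05% the AP-1 site. A match is a string of letters and not a measured binding site, and other starts of these genes were not searched.

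The arrays had median signals of 97.5 to 134.9. Signals of 38 control probe sets for foreign or reverse-strand sequence had a 95th percentile of 102 to 183 per array, and the 14 glutathione S-transferase probe sets lay above this range on all 8 arrays (lowest value 307, for Gstt1). All 14 passed the filter on low signals. Of the catecholamine cell markers, Chgb (12195 ± 625 induced, 10991 ± 1780 uninduced; SD, n = 4 each) and Phox2a were bright, while Th averaged 52.3 induced and 69.98 uninduced, under the control percentile of every array, and Ddc and Dbh were lower still. Of the 9 tested probe sets of these markers 0 were called higher and 1 lower, Phox2a (log2 difference -0.70, limma adjusted p = 0.00048). Without passing, Chgb (0.16), Scg2 (0.35) and Snap25 A, B and D (0.22, 0.10 and 0.67) lay higher. Th (-0.20), Slc18a1 (-0.16) and Snap25 C (-0.42) lay lower, also without passing. The summed signal of the list was 17303 to 18321 in induced and 16985 to 21206 in uninduced samples. Of 6 fibroblast markers, Col1a1 was called higher in 2 of its 4 probe sets (0.71 and 1.05). Without passing, Col1a1 A and B (0.13 and 0.70), Col3a1 A (0.18) and Thy1 A (0.0015) lay higher. Col1a2 (-0.15), Col3a1 B (-0.10), Dcn A (-0.59) and Thy1 B (-0.20) lay lower, also without passing. The summed signal of the fibroblast list was 4139 to 5242 in induced and 4032 to 5024 in uninduced samples. Its largest part was Thy1 A, which averaged 2944.5 induced and 2957 uninduced. Col1a2, Dcn A and Lum averaged under the control percentile of every array, so the sum does not measure a share of fibroblasts. The part of these markers in the results was not tested. Leukocyte and adrenal cortex markers summed to at most 183 and 148 in induced and at most 150 and 214 in uninduced samples.

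Transcripts of Gstm5 and Gstm1 were higher in induced cells, by 2.77-fold and 2.09-fold in their brightest probe sets. Gsta4, which acts on aldehydes from lipid peroxidation, rose 1.69-fold. Gstp1 lay higher in its 2 probe sets, by 1.43-fold in A and by 1.35-fold in B. Only A passed the test (limma adjusted p = 0.0329, against 0.0711 for B). No change passed the test for Gstm2, Gstm7, Gstt1 or Mgst1. In all, 8 of the 14 probe sets were called higher and 0 lower by the limma fit over 6129 probe sets. At an unadjusted p under 0.05, 9 of the 14 were higher and 1 lower, against 536 higher and 569 lower of the 6129. Over the whole array the fit called 7.06% of probe sets, 4.10% higher and 2.97% lower, and it called 322 of the 2306 probe sets at least as bright as the dimmest member (counts moved with array scaling: 58.0% of calls were higher, and 72.6% with median centring). In 8 of the 14 all induced samples lay above all uninduced ones, against 6.48% of tested probe sets, and in 1 they all lay below. The shares among the transferases were above those of the array, but the genes were chosen with earlier results known and several probe sets read the same gene. The median log2 difference was 0.63 over the 14 probe sets and 0.29 over the brightest probe set of each of the 8 genes, against -0.048 over all tested probe sets.

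**Figure D1:**
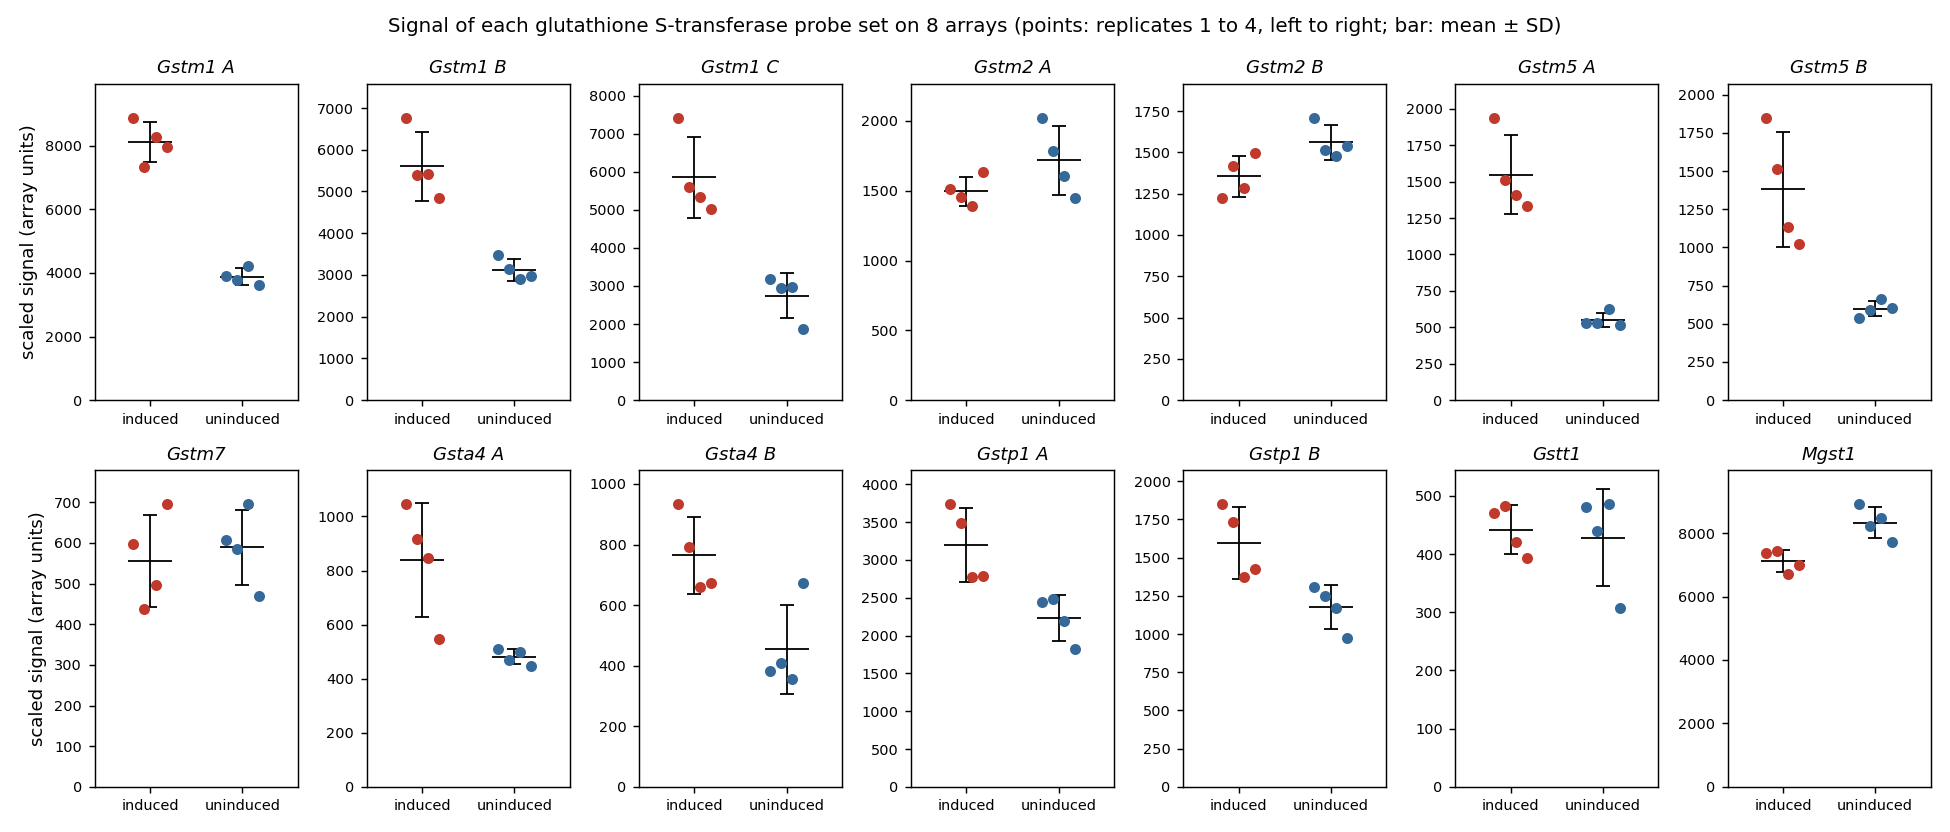
Scaled signal (vertical axis from 0, array units) of each of the 14 probe sets in 4 induced (red, left) and 4 uninduced samples (blue, right); points are replicates 1 to 4 from left to right, bars are means ± SD, and letters order the probe sets of a gene by mean signal. The groups separate without overlap for the probe sets of Gstm1, Gstm5 and Gstp1, for Gsta4 A and, with induced samples lower, for Mgst1.

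Gstm5 showed the largest difference of the 8 genes. Its brighter probe set (A) read 1939.8, 1512, 1407 and 1335 in induced replicates 1 to 4, against 529, 530.4, 623 and 518 in uninduced replicates 1 to 4. All induced samples lay above all uninduced ones, and the lowest induced signal was far above the highest uninduced one. Induced cells averaged 1548 ± 271 and uninduced cells 550.1 ± 48.9 (SD, n = 4 each). On the log2 scale the difference was 1.47 ± 0.13 (SE; limma adjusted p = 2.5e-05). Its other probe set (B) read 1851, 1511, 1135 and 1025 in induced samples, against 540.3, 588, 661 and 601 in uninduced ones. The groups were again apart, with a log2 difference of 1.16 ± 0.17 (limma adjusted p = 0.0012). In both probe sets the induced samples were more spread than the uninduced ones, with replicate 1 highest. The 2 probe sets come from the same source sequence, by their names, and so are not independent readings. Their differences were unequal by 0.31 on the log2 scale, which did not pass (exact permutation p = 0.0286, two-sided, the smallest that 70 splits can give; adjusted p = 0.133 over 7 pairs of probe sets of the same gene).

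Gstm1, a major mu class enzyme of rat liver, rose in all 3 of its probe sets. The brightest (A) read 8892, 7347, 8276 and 7973 in induced samples, against 3909.7, 3768, 4236 and 3633 in uninduced ones. The samples of each group lay close together and the groups were far apart. Induced cells averaged 8122 ± 643 and uninduced cells 3887 ± 259 (SD, n = 4 each). On the log2 scale this was a rise of 1.06 ± 0.09 (limma adjusted p = 1.7e-05), the lowest p among the 14 probe sets and ranked 19 among the 6129. Probe set B read 6772, 5393, 5419 and 4837 in induced samples, against 3486, 3145, 2897 and 2972 in uninduced ones (log2 difference 0.83 ± 0.11, limma adjusted p = 0.00057). Probe set C read 7427, 5604, 5350.4 and 5034 in induced samples, against 3181, 2937, 2979 and 1877 in uninduced ones (log2 difference 1.10 ± 0.17, limma adjusted p = 0.0015). The groups did not overlap in either, and uninduced replicate 4 was low in probe set C. None of the 3 pairs of Gstm1 probe sets differed in their change past the threshold, the largest gap being 0.27 between C and B (exact permutation p = 0.0571, adjusted p = 0.133).

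Gstm2, whose human counterpart is known to conjugate aminochrome, an oxidation product of dopamine, lay slightly lower in induced cells without passing the test. Its probe set A read 1514, 1457, 1388 and 1632 in induced samples, against 2025, 1786, 1609 and 1451 in uninduced ones. Probe set B read 1223, 1418, 1287 and 1495 in induced samples, against 1711, 1513, 1477 and 1540.1 in uninduced ones. The groups overlapped in both. The log2 differences were -0.19 (95% interval -0.44 to 0.06, limma adjusted p = 0.434) and -0.20 (-0.42 to 0.01, adjusted p = 0.314). The groups' means differed by less than the test could separate from the spread between replicates.

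Gstm7, also of the mu class, read 597, 438.5, 496 and 695 in induced samples, against 607.5, 585, 695 and 469 in uninduced ones. The groups covered nearly the same range. The log2 difference was -0.09 (95% interval -0.45 to 0.28, limma adjusted p = 0.863).

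Within the mu class the genes changed by unequal amounts, which was tested on the log2 ratio of their brightest probe sets array by array. The change of Gstm5 exceeded that of Gstm1 by 0.41, that of Gstm7 by 1.56 and that of Gstm2 by 1.66. The change of Gstm1 exceeded that of Gstm7 by 1.15 and that of Gstm2 by 1.25. Each of these 5 differences had an exact two-sided permutation p of 0.0286, the smallest the 70 splits allow (adjusted p = 0.0343 over 6 pairs), while Gstm7 and Gstm2 differed by 0.10 (p = 0.514). The probe sets of Gstm1, Gstm2 and Gstm7 carry the suffix the manufacturer uses for probes that may match several related transcripts, so their signals may mix mu class transcripts, including Gstm3, Gstm4 and Gstm6, for which the array has none assigned to that symbol alone. Other pairings of the Gstm5 and Gstm1 probe sets were not tested. Gstm5 B differed by 1.16 between the groups, near Gstm1 A (1.06) and Gstm1 C (1.10), and Gstm1 B by 0.83. The excess of Gstm5 over Gstm1 thus depends on the probe sets taken. A ratio within an array shows unequal change and does not show that either gene stayed constant.

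**Figure D2:**
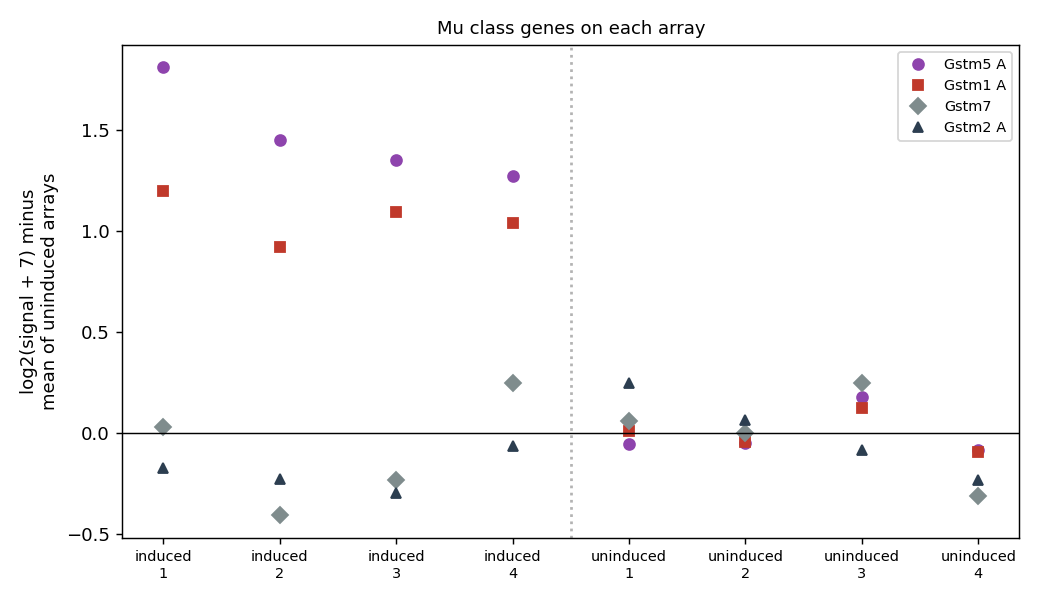
Brightest probe set of each mu class gene on every array, as log2(signal + 7) minus the mean of the 4 uninduced arrays (vertical axis); induced replicates are left of the dotted line and uninduced ones right. Gstm5 lies at 1.27 to 1.81 and Gstm1 at 0.92 to 1.19 on induced arrays, while Gstm7 and Gstm2 stay between -0.41 and 0.25 on all 8 arrays.

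Gsta4 is the alpha class enzyme known for detoxifying hydroxynonenal, an aldehyde from oxidised lipids. Its probe set A read 1045, 918, 846 and 548 in induced samples, against 511, 467, 500 and 448.5 in uninduced ones. The groups did not overlap, but induced replicate 4 came close to the uninduced samples. The log2 difference was 0.76 ± 0.18 (limma adjusted p = 0.0217). Probe set B read 933, 793, 659 and 674 in induced samples, against 381, 410.1, 355 and 672 in uninduced ones, and here uninduced replicate 4 lay inside the induced range. The log2 difference was 0.78 ± 0.20 (limma adjusted p = 0.0328). By their names the 2 probe sets come from the same source sequence, and so are not independent readings. Both probe sets stayed higher in induced cells in all 18 alternatives (0.64 to 0.95 for A, 0.67 to 0.98 for B), but the calls did not. Probe set A was called in 2 of 8 fits without 1 array and not without induced replicate 1, 2 or 3 or uninduced replicate 2, 3 or 4 (highest adjusted p 0.0660). Probe set B was called in 3 of 8, and not without induced replicate 1 or 2 or uninduced replicate 1, 2 or 3 (highest adjusted p 0.106).

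Gstp1, the pi class enzyme, is also known to bind and restrain the kinase JNK. Its probe set A read 3735, 3488.5, 2775 and 2789 in induced samples, against 2442.5, 2487, 2186 and 1824.5 in uninduced ones. All induced samples were above all uninduced ones, by a small margin. The log2 difference was 0.51 ± 0.13 (limma adjusted p = 0.0329). Probe set B read 1849, 1736, 1371 and 1428 in induced samples, against 1310.3, 1252, 1174 and 974 in uninduced ones, also without overlap, at 0.43 ± 0.13 (adjusted p = 0.0711, not past the threshold). In both probe sets induced replicates 1 and 2 stood above 3 and 4, and uninduced replicate 4 was lowest. Both also carry the suffix for probes that may match several related transcripts, so their signals may not come from Gstp1 alone. Gstp2 and Gstp3 had no probe set assigned to either symbol alone. Probe set A was called in 4 of 8 fits without 1 array, and not without induced replicate 1 or 2 or uninduced replicate 3 or 4 (highest adjusted p 0.0972).

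Gstt1, the theta class enzyme known for handling small halogenated compounds, read 471, 483, 421 and 393 in induced samples, against 481, 440.3, 486 and 307 in uninduced ones. The groups overlapped almost fully, with a log2 difference of 0.06 (95% interval -0.30 to 0.42, limma adjusted p = 0.915). Mgst1, a membrane enzyme of the endoplasmic reticulum and outer mitochondrial membrane, read 7374.5, 7443, 6715 and 6981 in induced samples, against 8907.5, 8210.3, 8474.5 and 7728 in uninduced ones. All induced samples lay below all uninduced ones, as they did in 7.11% of all tested probe sets. The log2 difference of -0.22 ± 0.08 did not pass after adjustment (limma adjusted p = 0.140).

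Within groups the extreme signals of the 14 probe sets, several of which read the same gene, often fell on the same array. Among induced samples replicate 1 had the highest signal in 9 of the 14 probe sets, and among uninduced samples replicate 4 had the lowest in 10 of the 14. Such a count was not made over all tested probe sets. Induced replicate 1 had the lowest median signal of all arrays (97.5) and uninduced replicate 4 the second highest (127). As signs of RNA quality, the log2 ratio of 3′ to 5′ control probe sets was read for Gapdh, actin and hexokinase, and the controls did not order the arrays alike. Induced replicate 1 had 0.48, 0.22 and 0.86 for these controls, within the range of the induced arrays for each. Uninduced replicate 4 had the lowest Gapdh ratio of all 8 arrays (0.20), the highest hexokinase ratio (1.37) and the highest actin ratio of the uninduced arrays (0.57). Over all arrays the ranges were 0.39 to 0.56 in induced and 0.20 to 0.50 in uninduced samples for Gapdh, -0.67 to 0.57 in induced and 0.076 to 0.57 in uninduced samples for actin, and 0.50 to 1.14 in induced and 0.87 to 1.37 in uninduced samples for hexokinase. The part of these array differences in the results was not tested. The calls of Gstm1 and Gstm5 stood in all 18 alternatives, median centring and the loss of any 1 array included, with log2 differences of 1.02 to 1.11 for Gstm1 A and 1.36 to 1.54 for Gstm5 A.

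**Figure D3:**
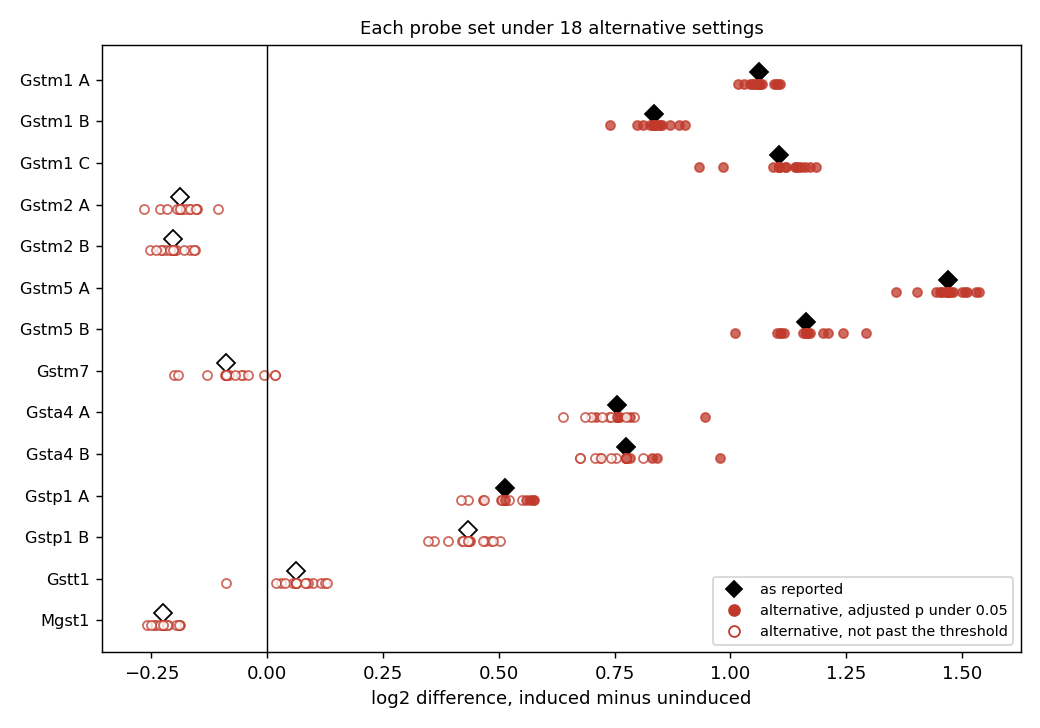
Log2 difference (horizontal axis, induced minus uninduced) of each of the 14 probe sets as reported (black diamonds) and under 18 alternative settings (red circles), filled where the adjusted p was under 0.05. The Gstm1 and Gstm5 probe sets are filled throughout, Gsta4 and Gstp1 A are filled in 8 to 10 settings, Gstp1 B in 1, and Gstm2, Gstm7, Gstt1 and Mgst1 in 0.

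Other genes of the soluble and microsomal families were read by 18 single-symbol probe sets for 9 genes (Gsta1, Gsta3, Gstt2, Gstk1, Gsto1, Hpgds, Mgst2, Mgst3 and Alox5ap). The list was drawn by family and not by shown transferase activity. Of the 18 probe sets, 15 passed the filter. The limma fit called 0 of these 15 in either direction, and 0 had an unadjusted p under 0.05. At that unadjusted threshold 536 of the 6129 tested probe sets were higher and 569 lower. With 7.06% of all tested probe sets called, a count of 0 among 15 is near the share of the array. Their median log2 difference was -0.052, close to that of all tested probe sets. The lowest p belonged to Mgst3, a microsomal relative of Mgst1, which read 1622, 1421, 1345 and 1219 in induced samples, against 1884.5, 1879, 1982 and 1198.5 in uninduced ones (log2 difference -0.29, limma adjusted p = 0.384). Its groups overlapped through uninduced replicate 4, and without that array it was called lower (-0.46, adjusted p = 0.0325). Gstt2, also of the theta class, differed by 0.17 (adjusted p = 0.614) and Gsto1, an omega class enzyme, by -0.14 (adjusted p = 0.512). The differences of these genes were not tested against those of the 8.

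**Figure D4:**
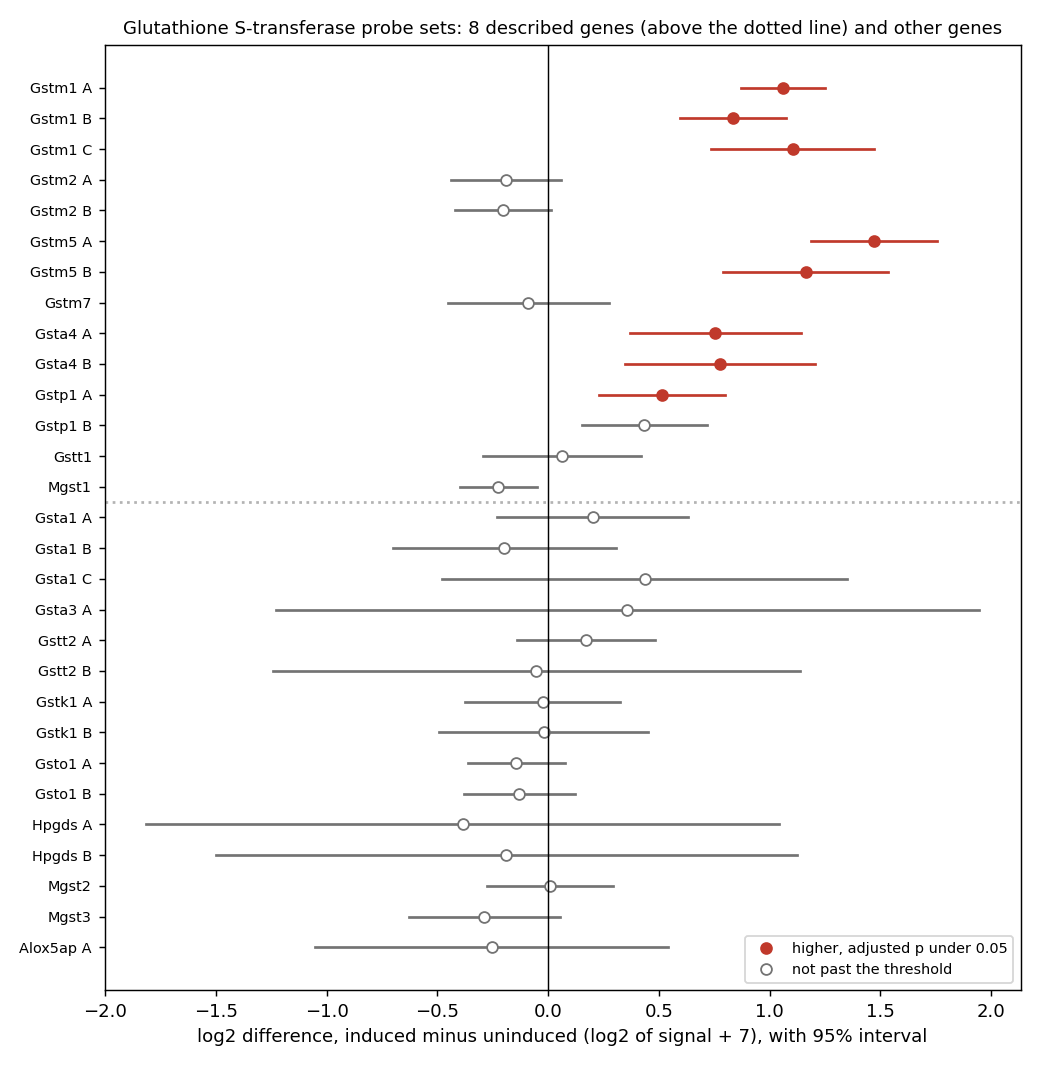
Log2 differences (horizontal axis, induced minus uninduced, with 95% intervals) of the 14 probe sets above the dotted line and of 15 probe sets of other genes of the soluble and microsomal families below it. Red points passed the limma test. Intervals of the dim probe sets of Hpgds and Gsta3, and of Gstt2 B, span more than 2 log2 units.

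A list of 28 genes of glutathione synthesis and use and of Nfe2l2 response was read beside the transferases; 21 had a single-symbol probe set and 20 passed the filter. By the brightest probe set of each gene, 1 rose, 0 fell and 19 did not pass, against 7.20% of all 3623 tested genes called (4.31% higher, 2.90% lower). At an unadjusted limma p under 0.05, 3 of the 20 were higher and 2 lower, against 328 higher and 352 lower of the 3623 genes. The median log2 difference was 0.075, against -0.054 over all genes. The member that rose was Nqo1, a quinone reductase and a standard Nfe2l2 target. Its probe set A read 904, 663, 684 and 671 in induced samples, against 476, 505, 549 and 393 in uninduced ones. The groups did not overlap, and induced replicate 1 stood above the other induced samples. The log2 difference was 0.60 ± 0.15 (limma adjusted p = 0.0271; called in 11 of 18 alternatives, highest adjusted p 0.155), and a second probe set differed by 0.23 (adjusted p = 0.604).

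No probe set of glutathione synthesis was called in the fit over all 8 arrays. Gss, the second enzyme of the synthesis, read 1226, 1238, 1106 and 1329 in induced samples, against 808, 1009, 1070.2 and 883 in uninduced ones (log2 difference 0.38, limma adjusted p = 0.0737), and its dimmer probe set (B) differed by 0.83 (adjusted p = 0.0608). Gss B was called higher in 3 of 18 alternatives, with the filter at the 50th percentile (0.83, adjusted p = 0.0470), without induced replicate 3 (1.01, 0.0251) and without uninduced replicate 3 (0.97, 0.0496). The groups of the brighter probe set did not overlap. Gclc and Gclm, the subunits of the enzyme that limits the synthesis, differed by -0.22 and -0.30 in their brightest probe sets (adjusted p = 0.454 and 0.188). Txnrd1, a thioredoxin reductase under Nfe2l2 control, differed by 0.36 and 0.33 in its 2 probe sets (adjusted p = 0.152 and 0.0577). The second of these, Txnrd1 B, was called higher with the filter at the 50th percentile (0.33, adjusted p = 0.0483), without induced replicate 4 (0.39, 0.0273) and without uninduced replicate 4 (0.38, 0.0322). Ephx1, an epoxide hydrolase, differed by -0.53 (adjusted p = 0.108). Hmox1, the haem-degrading enzyme, differed by 0.30 (adjusted p = 0.435), and the probe sets of Nfe2l2 itself by -0.0067 and 0.0085 at signals near the control range.

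**Figure D5:**
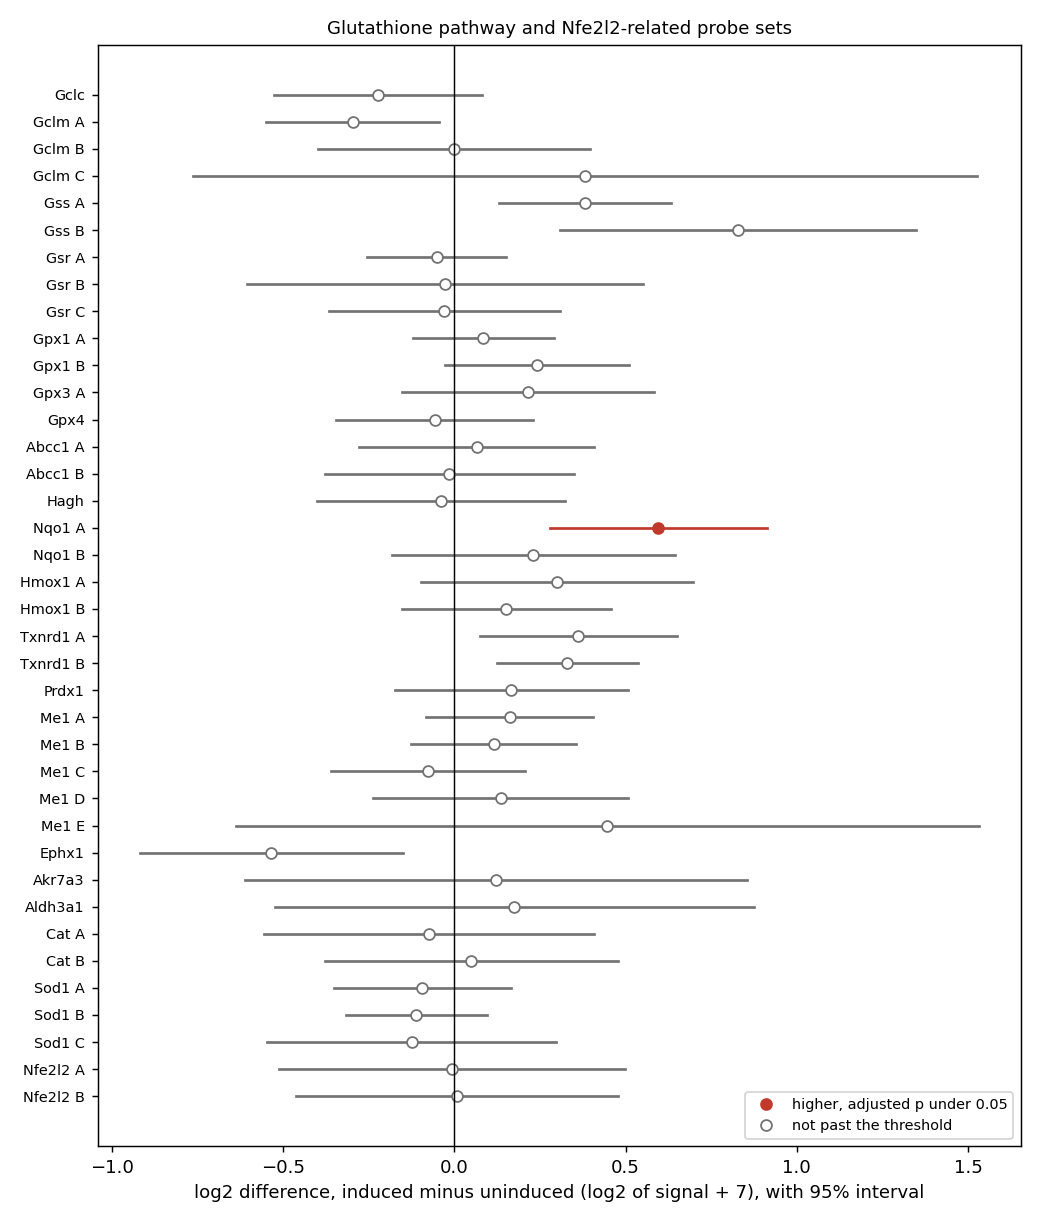
Log2 differences (horizontal axis, induced minus uninduced, with 95% intervals) of the 38 tested probe sets of the glutathione and Nfe2l2 list; the red point, Nqo1 A, passed the limma test. Gss and Txnrd1 have intervals above 0 without passing after adjustment, and Ephx1 and Gclm A have intervals below 0.

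The genes whose signals ran most alike Gstm1 A over the 8 arrays were Tuba4a (Pearson r = 0.993), Egr1 (0.988), Krt8 (0.988), Dusp1 (0.986) and Eaf1 (0.984). These values are a description over 8 points that fall into 2 groups, and they share the arrays and the difference between groups. Tuba4a, an alpha tubulin, differed by 0.79 between the groups, Krt8, a keratin, by 0.90 and Eaf1 by 1.16, sizes near that of Gstm1. The transcription factor Egr1 and the phosphatase Dusp1 differed by more, 2.46 and 2.29.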

How the data were processed

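RNA of 8 PC12 samples was read on 8 single-colour arrays, 1 per sample, and the titles set the groups. The authors deposited linear intensities (a signal for each probe set on each array). Trimming 2% at either end, the 8 columns have means of 500.8 to 500.9, and so were scaled before deposit; the program is not given in the sources used here, and no detection calls were used. Gene symbols came from the array's annotation table, and all 8 member genes were found in the rat reference list (GRCr8) under the same symbol.

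Signals were transformed as log2(signal + 7). The 59 control probe sets and 2611 others with an 8-array mean under the 30th percentile (36.0) were left out, and limma 3.58.1 (R 4.3.3; lmFit, then eBayes with an intensity trend) was run on the remaining 6129. P-values were adjusted by Benjamini-Hochberg over the 6129. A probe set was called at an adjusted p under 0.05. The fit was tested on simulated data. Pairs of probe sets were compared by exact permutation of the arrays. Every probe set of the members is named, with the called genes of 2 other lists or otherwise the 3 with the lowest p, and the 5 genes most alike in pattern. Outside this rule, genes of the glutathione and Nfe2l2 list that were not called are also named: Gss, Gclc, Gclm, Txnrd1, Ephx1, Hmox1 and Nfe2l2. The members and lists were chosen with earlier results of these data known. Replicate numbers showed no sign of pairing: same-numbered arrays had correlations of deviations from -0.14 to 0.19, and differently numbered ones from -0.21 to 0.20. This does not show that the samples were unpaired. Promoter sequences came from RefSeq (GRCr8).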

Additional observations from a re-analysis of the deposited data

Results flagged for a closer look

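Among 30 groups of 4 samples examined (15 probe sets, induced and uninduced), 2 held a sample far from the other 3, by Dixon's criterion; chance alone gives about 1 in 20 groups. Gstm5 A read 623 in uninduced replicate 3, with the next sample at 530.4, a gap of 0.882 of the group's range. Without that array the log2 difference of Gstm5 A was still called, within the range given for the fits without 1 array. Nqo1 A read 904 in induced replicate 1, with the next sample at 684 (gap 0.910 of the range), and without that array its log2 difference was 0.49 (limma adjusted p = 0.0794).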

How the results depend on the processing

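Over 18 alternatives all 5 probe sets of Gstm1 and Gstm5 kept their direction and call; the cause of the changes below was not tested. Calls among the 14 probe sets numbered 8 as reported and 5 with median centring, with no intensity trend and with both replicate 2 arrays left out, and 5 to 8 without 1 array. Gsta4 A gave 0.79 with median centring (adjusted p = 0.128), 0.76 without the trend (0.0772) and 0.69 without both replicate 2 arrays (0.157). Gsta4 B gave 0.81 (0.0774), 0.78 (0.105) and 0.72 (0.194), and Gstp1 A 0.55 (0.233), 0.51 (0.127) and 0.52 (0.123) in the same settings. With no filter Gsta4 B (0.78, adjusted p = 0.0540) and Gstp1 A (0.51, 0.0529) were not called. With the replicate block, on numbers that showed no sign of pairing, Gsta4 B was not called (0.78, 0.0520) and Gstp1 B was (0.43, 0.0481). The other 12 probe sets kept their calls. Without 1 array Gsta4 A ranged from 0.64 to 0.95, Gsta4 B from 0.67 to 0.98 and Gstp1 A from 0.42 to 0.58. By the brightest probe set of each gene, the pathway list gave 0 calls with median centring, without the trend and without both replicate 2 arrays, and 0 to 1 without 1 array. Over all its probe sets the pathway list gave 1 as reported, 3 with the filter at the 50th percentile (Nqo1 A, Gss B and Txnrd1 B) and 0 to 2 without 1 array. The other genes of the soluble and microsomal families gave 0 to 1. Over the whole array 433 probe sets were called (251 higher, 182 lower), 230 with median centring (167 higher, 63 lower), 279 without the trend (101 lower), 221 without both replicate 2 arrays (141 higher, 80 lower), and 313 to 408 without 1 array (191 to 244 higher, 112 to 164 lower). The 7 same-gene and 6 mu class pairs kept their direction and their side of the threshold with constants of 1 and 50. The sizes of changes near background would depend on the constant added, but the 14 probe sets lay above it. The number of arrays, 4 per group, limits the precision.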
